A study of Mus musculus with 18 samples.

Results

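In mouse fibroblasts that were making the histone variant macroH2A2 for 24 hours, the bodies of expressed genes carried little of it, and carried more where the CDK9 inhibitor flavopiridol had been present. The comparison described here is that of the macroH2A2-GFP regions called at 24h with flavopiridol and those called at 24h without it, 2 of the 18 libraries of the series. Of 18415 protein-coding genes of 3 kb or more, 237 had 80% or more of their body inside regions with flavopiridol and 20% or less without it, which is 1.29% of the genes examined. The opposite pattern was met by 52 genes, 0.282%. With 1 kb left on at both gene ends these counts were 140 and 20, and in genes of 10 kb or more 117 and 5. Each condition is 1 ChIP library, so no test was made, and every difference describes these libraries only.

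The cells were SV40-immortalized neonatal dermal fibroblasts of the 129/S6 background, from a male, deleted for both macroH2A1 and macroH2A2 and carrying a macroH2A2-GFP transgene that doxycycline switches on. All induced libraries received 0.5 ug/ml doxycycline, for 24 hours in the pair compared, and the flavopiridol-treated cells also received 0.5 uM flavopiridol for the last 18 of those hours. Native ChIP with GFP-Trap beads after MNase digestion was also made at 0h (no doxycycline), at 6h and 5d of doxycycline, and in cells that first spent 10 days in 5 uM of the Ezh2 inhibitor GSK126, at 6h and 24h. Poly(A) RNA had 3 libraries at 0h, whose counts sort genes here, while RNA of flavopiridol-treated cells was not analysed here. The labels do not say whether the line is 1 clone, and an H2A.Z profile used for comparison came from wild-type primary dermal fibroblasts, not from this line.

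MacroH2A variants carry a large globular macro domain on a histone H2A fold and lie in broad domains, mostly over silent or weakly transcribed chromatin. RNA polymerase II pauses soon after starting a gene, and P-TEFb, the kinase CDK9 with a cyclin T, releases it into the gene body by phosphorylating the polymerase and its pausing factors. Flavopiridol blocks CDK9 and so keeps the polymerase near the start, and it also inhibits other cyclin-dependent kinases. The comparison asks whether macroH2A2 is found in gene bodies when elongation is blocked.

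Some facts of the whole series bear on every value. The flavopiridol library had 43884 regions over 385 Mb (median length 6000 bases, highest score 11) and the 24h library without it 44827 regions over 363 Mb (median 5200 bases, highest score 24). The uninduced 0h library, in which no GFP-tagged variant was induced, still had 28980 regions over 201 Mb, and this background is given beside the results. RNA libraries at 0h held 32684257 to 34629331 counts over genes. Macroh2a1 RNA stood at 57.4 ± 1.86 CPM (counts per 1000000, SD, n = 3) and Macroh2a2 RNA at 15.3 ± 8.88 CPM at 0h in these cells labelled as lacking both proteins, and the deleted exons were not examined. Of 20 fibroblast markers 14 had 10 CPM or more at 0h and 2 had under 0.1 CPM, with a summed level of 6423 to 6653 CPM. Markers of keratinocytes summed to 236 to 243 CPM, of endothelial and mural cells to 190 to 198 CPM, of adipocytes and muscle to 12.3 to 14.3 CPM, of macrophages to 3.46 to 3.93 CPM, and of melanocytes and Schwann cells to 5.31 to 6.09 CPM. At 0 CPM were 2 of 9, 0 of 8, 2 of 8, 2 of 7 and 3 of 8 of them, in that order.

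Among the genes covered only with flavopiridol, Nrp1 and Tuba1a had the most RNA. Nrp1, the gene of neuropilin 1, a co-receptor for semaphorins and VEGF (ENSMUSG00000025810, chr8:128358591-128505476, RefSeq GRCm38.p6), had 388, 391 and 382 CPM in the 3 RNA libraries at 0h, the highest mean of the 237. Its body was covered to 0% at 0h, 89.8% at 6h, 3.17% at 24h, 81.8% at 24h with flavopiridol and 0% at 5d. Tuba1a, which encodes an alpha-tubulin (ENSMUSG00000072235, chr15:98949847-98953501), had 322, 321 and 317 CPM and stood at 0%, 54.4%, 0%, 100% and 0% in the same order. Tubulin genes have close copies, so its counts may include reads of others. In both genes the flavopiridol library held coverage that the 5d library did not have, while the contrast with the 24h library follows from the rule that chose them.

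Start windows of such genes follow. Those printed were shown because they met no region at 24h, so this lack is no finding. That the gene bodies met regions with flavopiridol follows from the rule that chose the genes. The 250 bases before the annotated start of 3 of the 10 genes with the most RNA follow, 5′ to 3′ along the gene's strand, from RefSeq GRCm38.p6; capitals mark GGGCGG or its reverse complement CCGCCC, the core of the GC box bound by Sp1 and related factors.
Tuba1a: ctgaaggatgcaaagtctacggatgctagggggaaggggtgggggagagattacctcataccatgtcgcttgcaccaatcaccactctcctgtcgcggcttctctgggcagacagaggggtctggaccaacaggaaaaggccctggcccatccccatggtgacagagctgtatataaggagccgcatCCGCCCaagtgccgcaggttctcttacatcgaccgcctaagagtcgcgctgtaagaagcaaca
Nfatc3: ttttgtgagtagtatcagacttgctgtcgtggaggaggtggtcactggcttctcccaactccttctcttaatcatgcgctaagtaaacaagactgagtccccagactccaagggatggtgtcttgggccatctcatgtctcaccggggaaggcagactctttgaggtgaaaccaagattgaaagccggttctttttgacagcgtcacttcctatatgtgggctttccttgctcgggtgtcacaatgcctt
Rab31: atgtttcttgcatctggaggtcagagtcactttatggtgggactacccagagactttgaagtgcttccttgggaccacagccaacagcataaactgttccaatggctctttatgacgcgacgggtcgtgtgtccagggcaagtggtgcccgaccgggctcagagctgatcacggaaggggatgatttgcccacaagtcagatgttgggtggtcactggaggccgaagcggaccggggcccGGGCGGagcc
The windows are chr15:98953502-98953751 (minus strand) for Tuba1a, chr8:106058568-106058817 (plus strand) for Nfatc3 and chr17:65772753-65773002 (minus strand) for Rab31. GGGCGG on either strand was present in 32.7% of 32851 windows of this length in the table, and in 64.9% of the 6848 windows of genes with 10 CPM or more. None of the 3 windows overlapped a macroH2A2-GFP region at 24h, with or without flavopiridol, and each overlapped an H2A.Z region of primary fibroblasts. Both are common in high genes (10 CPM or more). Of 6848 such genes, windows of 300 bases around the start met a region in 6.63% without and 8.25% with flavopiridol, and an H2A.Z region in 87.6%. At 6h the windows of Tuba1a and Nfatc3 did overlap a region, and that of Rab31 did not. Upstream, the nearest flavopiridol region lay 0.049 kb from the window of Tuba1a, 0.967 kb from that of Nfatc3 and 0.198 kb from that of Rab31. With flavopiridol the next region inside the gene began 0.901 kb from the start of Tuba1a, 4.78 kb from that of Nfatc3 and 13.8 kb from that of Rab31. Without it the next region downstream lay 3.30 kb, 80.4 kb and 5.95 kb away.

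In other highly expressed members, 6h lay above flavopiridol in some and below it in others. Nfatc3, the gene of a calcineurin-regulated transcription factor, had 234 ± 4.57 CPM (SD, n = 3) and coverage of 98.6% at 6h, 0% at 24h and 84.5% with flavopiridol. Rab31, which encodes a small GTPase of vesicle transport (chr17:65651726-65772752), had 179 ± 1.74 CPM and coverage of 84.9%, 6.22% and 83.1%. Pkd1, the polycystin 1 gene, had 79.9%, 0.244% and 84.5%. Reep3, the gene of a membrane protein of the endoplasmic reticulum, had 69%, 0% and 87.2%. In these genes the 6h library was high as well. Their high flavopiridol and low 24h values follow from the rule that chose them, so that contrast is no finding.

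For some members the flavopiridol library lay well above 6h. Itpr3, the gene of an inositol trisphosphate receptor calcium channel, was covered to 37.6% at 6h, 2.53% at 24h and 81.0% with flavopiridol. Ehmt2, which encodes the H3K9 methyltransferase G9a, had 43.1%, 0% and 82.8%. Rpl36, a gene of the large ribosomal subunit, was at 97.9% both at 6h and with flavopiridol and at 0% at 24h, and it was the 1 ribosomal protein gene among the 10 members with the most RNA. Ribosomal protein genes have processed copies, so its counts of 216, 229 and 259 CPM are uncertain.

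Several members were genes of more than 80 kb. Tnrc6b, which encodes a scaffold of microRNA silencing (chr15:80711313-80941086, 230 kb), went from 12.4% to 80.4% of its body, and stood at 83.0% at 6h and 0% at 5d. Tiam2, a gene of a Rac exchange factor with 193 kb, had 9.11% without and 81.5% with flavopiridol. Smad3, the gene of a TGF-beta signal transducer with 111 kb, had 18.5% and 91.2%, and Met, the hepatocyte growth factor receptor gene with 111 kb, had 8.65% and 86.7%. Fkbp5, which encodes an Hsp90 co-chaperone (chr17:28398753-28486149, 87.4 kb), had 15.7% and 98.0%, and 97.2% at 6h.

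**Figure D1:**
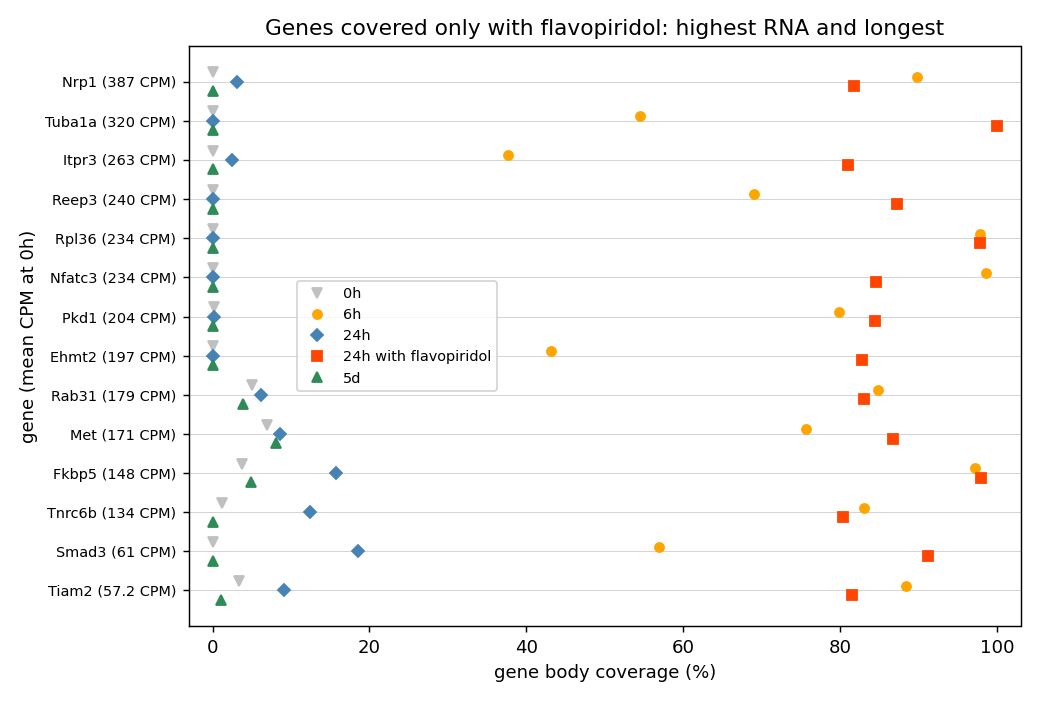
Gene body coverage (x axis, %) of described genes covered only with flavopiridol that have the most RNA at 0h or are the longest (y axis, with their mean CPM at 0h), 1 symbol per ChIP library. Squares (24h with flavopiridol) lie at 80.4% or more, diamonds (24h) at 18.5% or less, and the 6h circles spread from 37.6% (Itpr3) to 98.6% (Nfatc3).

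As a set, the 237 genes were shorter than others and spanned all RNA classes. Genes are called high where the 0h libraries average 10 CPM or more, medium from 1 CPM, low from 0.1 CPM and silent below that; CPM is not per length, so longer transcripts count for more. Of the 234 members with RNA counts, 120 were high, 57 medium, 21 low and 36 silent. These were 1.43% of all high genes, 2.98% of medium and 1.59% of low genes, against 1.29% over all genes examined. The rate in high genes was thus near that over all genes. Among all 6311 silent genes those 36 are 0.57%, and 48 (0.761%) were covered only without the inhibitor. The median length of the 237 was 9.52 kb (3.12 to 230 kb), against 22.7 kb over all genes examined, and their median RNA 10.7 CPM against 6.35 CPM. A body of a short gene can fall inside 1 region, and in 164 of the 237 it met only 1 region of the flavopiridol library. Coverage was 0% without flavopiridol in 186 and 100% with it in 66. Within 50 kb of another member lay 62 of them, so they are not independent of each other.

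Coverage at 6h is given by class. The 120 high members had a median length of 14.4 kb and a median coverage of 64.6% at 6h, where 75 had 50% or more and 23 had 20% or less. The 36 silent members had a median length of 4.47 kb and a median of 0% at 6h, where 25 had 20% or less. Over all 18415 genes the median at 6h was 0% as well and 13026 had 20% or less. Over all 237, coverage was 20% or less at 0h in 230, at 5d in 226 and at 24h after GSK126 in 211. Over all 18415 genes these numbers were 16893, 15827 and 15893, so low coverage in those libraries is common outside the set too. An exception was Glo1, the glyoxalase 1 gene, named after its values were seen, which was covered to 100% at 0h, 6h and 24h with flavopiridol, and to 0% at 24h without it.

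At the edge of the rule, Prl7c1, a silent prolactin-family gene, with 80.1% and Armc6 (43.0 CPM) with 80.1% lay just inside the bound of 80%. Tmem62 (14.4 CPM) with 79.8% and the silent gene Gfy with 79.8% lay just outside. Without flavopiridol these genes had 0%, 0%, 8.17% and 15.8%.

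The 52 genes covered only without flavopiridol were short and mostly silent, 48 of them under 0.1 CPM and none high. Only 22 high genes had 80% or more without flavopiridol, so few could be among the 52. Their median length was 5.30 kb. Ptx3, the gene of the secreted pattern-recognition protein pentraxin 3, had the most RNA among them, 8.46, 8.54 and 8.89 CPM, and its coverage was 81.8% without and 0% with flavopiridol. It stood at 76.5% at 6h and 0% at 5d. Penk, the proenkephalin gene (0.387 CPM), fell from 91.9% to 0%, and Atp1b2, a sodium pump subunit gene (0.472 CPM), from 100% to 0%. Klhl30 (1.21 CPM) went from 100% to 16.4%. The longest, Gm5544 with 36.8 kb, had 86.2% and 0%, and G6pc, the liver glucose-6-phosphatase gene with 0 CPM, had 100% and 1.04%.

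Across all genes with RNA counts (17969), the difference lay in the medium and high classes. High genes (8420) had a mean body coverage of 2.26% at 24h and 10.6% with flavopiridol, medium genes (1914) 14.0% and 23.4%, low genes (1324) 29.8% and 31.7%, and silent genes (6311) 17.2% and 15.9%. The same means were 0.939%, 6.04%, 13.1% and 8.31% in the uninduced 0h library. At 6h they were 20.1%, 20.5%, 24.4% and 10.0%, and at 5d 1.17%, 8.67%, 22.9% and 15.4%. High genes with flavopiridol thus lay between their 6h and 24h means, and the silent and low means at 24h differed by at most 1.91 points.

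**Figure D2:**
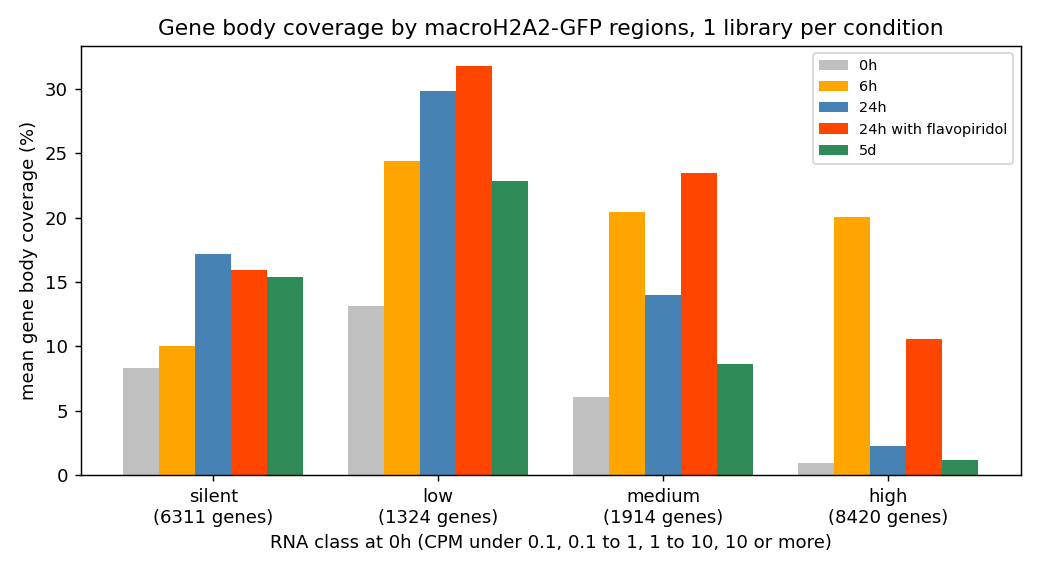
Mean gene body coverage (y axis, %) by RNA class at 0h (x axis) in 5 ChIP libraries, 1 bar per library and no error bar because each is a single library. In the high class the bars run from 2.26% at 24h to 10.6% with flavopiridol and 20.1% at 6h, and in the silent class from 17.2% to 15.9% and 10.0%.

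Counts of high genes gave the same picture. Coverage of 80% or more was reached by 22 of 8420 high genes without flavopiridol (0.261%, exact Clopper-Pearson 95% interval 0.164 to 0.395%) and by 206 with it (2.45%, 2.13 to 2.80%). These intervals cover counting error over genes only. Of the high genes 120 were covered only with flavopiridol (1.43%) and 0 only without it, which allows a share of up to 0.0438%. Only the 22 high genes at 80% or more without flavopiridol could be counted as covered only without it, so this 0 says little. Any coverage was present in 1106 high genes (13.1%) without and 2927 (34.8%) with flavopiridol. By a looser measure, a difference of 20 points or more, 1302 high genes gained (15.5%) and 13 lost coverage (0.154%). Only the 1106 high genes with any coverage without flavopiridol could lose any, so gains and losses did not start from equal numbers of genes. In the silent class 302 gained (4.79%) and 451 lost (7.15%), against 2146 gains (11.7%) and 630 losses (3.42%) over all genes. Most high genes stayed uncovered, as 6823 of 8420 had 20% or less in both libraries.

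Within the high class the gain in points was smaller where RNA was highest, and larger in longer genes. Coverage without flavopiridol was mostly lower with more RNA and higher in longer genes too, and ratios of the means did not keep this order. Mean coverage went from 3.91% to 14.1% in 2400 genes with 10 to 30 CPM, from 1.83% to 9.72% with 30 to 100 CPM, from 1.25% to 8.85% with 100 to 300 CPM and from 1.28% to 6.85% in 560 genes with 300 CPM or more. By length it went from 1.33% to 6.66% in high genes of 3 to 10 kb, from 1.55% to 9.90% at 10 to 30 kb, from 2.29% to 10.8% at 30 to 100 kb and from 5.27% to 17.2% in 1146 genes of 100 kb or more. A gain of 20 points or more was found in 8.78% of the shortest and 22.6% of the longest of these length groups. Silent genes of 100 kb or more showed 8.67% and 7.12%, with 3 gains and 24 losses among 791 genes. Long high genes held part of their length in regions more often, while complete coverage by the 80% and 20% rule was met by 35 high genes of 3 to 10 kb (2.28%) and by 6 of 100 kb or more (0.524%).

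**Figure D3:**
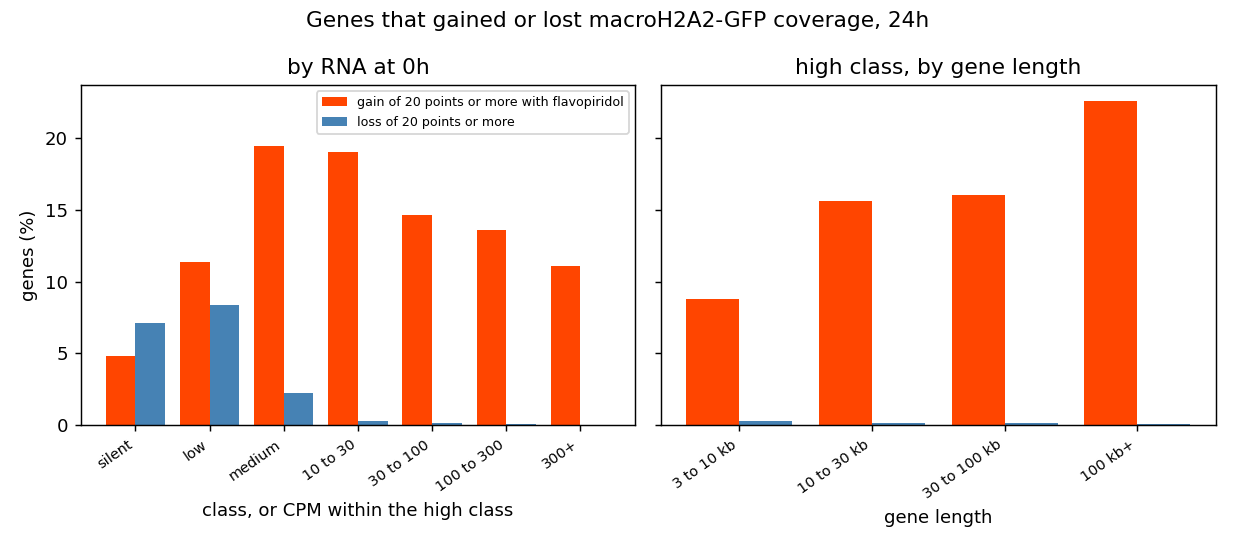
Percent of genes (y axis) that gained or lost 20 points or more of body coverage with flavopiridol, by RNA at 0h (left, with the high class split by CPM) and by length within the high class (right). Gains were found in 4.79% of silent, 11.4% of low and 19.5% of medium genes and in 15.5% of the high class as a whole, and losses in 7.15% of silent and 0.154% of high genes.

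Of the 560 genes with 300 CPM or more, 40 had any coverage without and 147 with flavopiridol, and 62 gained 20 points or more. Those with the most RNA among genes at 20% or less in both libraries were chosen by that bound, so their low coverage is no finding. Actb, the beta-actin gene, with 6302, 6122 and 6043 CPM, Eef1a1, a translation elongation factor gene, Hsp90ab1, an Hsp90 chaperone gene, and Fn1, the fibronectin gene, had 0% at 24h with and without flavopiridol, and also at 0h, 6h and 5d. Vim, the vimentin gene with 4559 CPM, had 0% without and 18.8% with flavopiridol. Few high genes were covered in both libraries, 17 of 8420. Of these Thbs2, the thrombospondin 2 gene (86.2 CPM), had the most RNA, with 92.5% without and 100% with flavopiridol, against 46.2% in the uninduced library. Igfbp6, which encodes an IGF-binding protein, was at 100% in both and at 87.5% at 0h. H2-D1, a class I histocompatibility gene, was at 87.2% in both and at 6h, and at 0% at 0h.

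Along the gene, the profiles of the pair differed less at the start than some kilobases before it or further into the body. In 5590 high genes of 10 kb or more with a known strand, of 6883, each body was cut into 20 bins of 5%. Strand was known less often on chromosomes 8, 15 and 18, so genes there are under-represented in these profiles. The first bin had 4.16% of bases in regions without and 7.75% with flavopiridol. From 20 to 25% of the length it was 3.30% and 12.9%, from 50 to 55% 1.87% and 11.1%, and from 80 to 85% 1.36% and 9.49%. Within the body the largest differences, 9.76 and 9.79 points, lay between 30 and 40% of the length. At 6h the same bins held 13.7%, 23.3%, 21.0% and 18.4%. The flavopiridol profile thus lay between those of 6h and 24h in all 20 bins of the body.

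Flanks of these genes were covered more in both libraries. From 4 to 3 kb before the start 36.6% of bases were in regions without and 47.9% with flavopiridol, and in the last kilobase before the start 12.7% and 16.7%. At 6h these bins held 40.8% and 21.7%. From 10 to 1 kb before the start the flavopiridol profile lay above that of 6h, unlike in the body. The differences from 5 to 1 kb before the start, 10.2 to 12.1 points, were larger than in any bin of the body, so the gain was not limited to gene bodies. In the first kilobase after the end it was 4.08% and 13.5%, and from 9 to 10 kb after the end 19.5% and 22.7%. Measured in kilobases in 2071 high genes of 50 kb or more with a strand, the first kilobase had 5.59% and 6.03%, the second 6.80% and 9.88%, that from 4 to 5 kb 7.17% and 17.6%, and that from 48 to 49 kb 3.38% and 12.8%. The difference was thus 0.446 points in the first kilobase and 10.4 points from 4 to 5 kb.

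**Figure D4:**
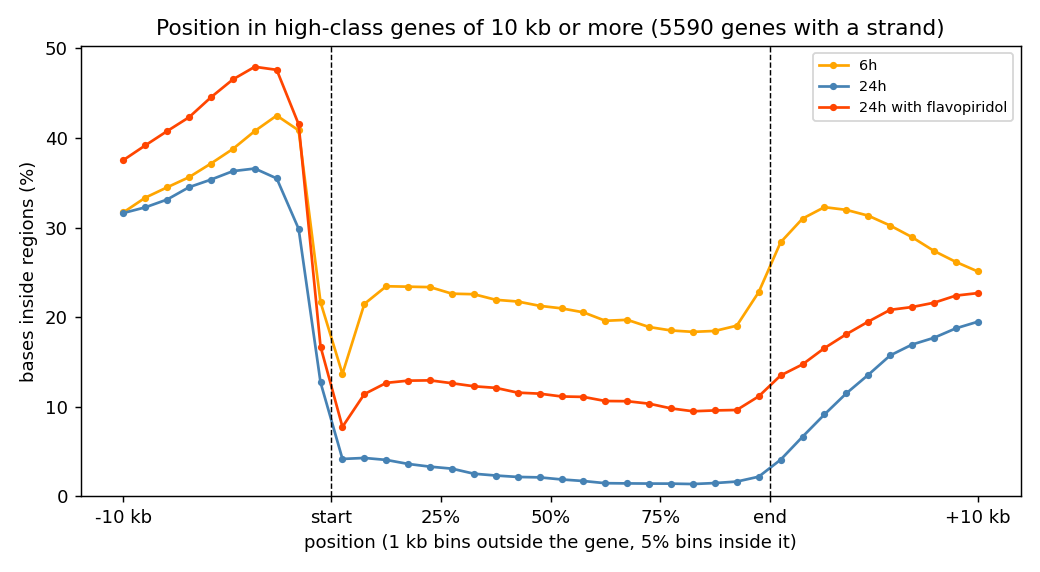
Percent of bases inside regions (y axis) along high genes of 10 kb or more (x axis: 1 kb bins outside the gene, 5% bins inside, dashed lines at start and end) for the 6h, 24h and 24h flavopiridol libraries, each a mean over 5590 genes. The 3 lines fall at the start; inside the body the flavopiridol line reaches 12.9% while the 24h line stays at 4.27% or less.

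Start windows met regions in few genes. Of 6848 high genes with a strand, the 300 bases around the start (250 before, 50 after) met a region in 454 (6.63%) without and 565 (8.25%) with flavopiridol, and in 862 (12.6%) at 6h. Windows met only with flavopiridol numbered 243 and only without it 132. H2A.Z regions of primary fibroblasts met 87.6% of them.

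In bases, the regions of the pair shared 268 Mb, which is 69.5% of the flavopiridol library and 73.7% of the other. Bases called only with flavopiridol came to 117 Mb and those called only without it to 95.6 Mb. High genes, which make up 17.4% of the annotated span of the chromosomes, held 49.3 Mb of the first (42%) and 2.86 Mb of the second (3.00%), a ratio of 17.2. Medium genes held 10.7 and 4.45 Mb, a ratio of 2.40. The ratio was below 1 elsewhere, at 0.746 in low genes (4.28 and 5.74 Mb), 0.605 in silent genes (7.03 and 11.6 Mb) and 0.636 between genes (37.5 and 59.0 Mb). These sets of bases thus lay in different places, although their totals were near each other.

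Counted as whole regions, 11419 of the flavopiridol library (26.0%, exact interval 25.6 to 26.4%) shared no base with the other, and 10799 of the other (24.1%, 23.7 to 24.5%) shared none with it. With the covered length made equal, by leaving out the lowest-scored flavopiridol regions, these numbers were 8959 and 13627, so which library had more regions of its own turned round. The ratio in high genes was 13.4 with equal length and 11.4 with only regions at or above their library's median score. Of the bases called only with flavopiridol, 63.6 Mb lay in regions with no shared base and 53.9 Mb extended shared regions.

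The longest stretches called only with flavopiridol lay in expressed genes. The longest, 84.4 kb at chr17:30443401-30527800, lay in Btbd9, a gene of a BTB domain protein with 36.2 CPM. The next lay in Fkbp5 (59.4 kb), Tnrc6b (54.2 kb), Fer, a tyrosine kinase gene (53.6 kb), and Ltbp1, the gene of a latent TGF-beta binding protein (52.6 kb). Of their bases 83.0 to 98.6% were inside 6h regions and 0% inside 5d regions. These stretches lay on chromosomes 15 and 17. On chromosomes 8, 15 and 17 the mean coverage of high genes at 6h was 46.9%, against 15.3% on the others. Stretches of 20 kb or more numbered 175 with flavopiridol and 60 without. The longest called only without it, 96.4 kb at chr13:12859201-12955600, met no protein-coding gene, as did 3 of the other 4 longest, on chromosome 15. Other kinds of genes were not looked up in these stretches. The remaining one, 50.4 kb on chromosome 17, held the olfactory receptor genes Olfr55 and Olfr239, which had no RNA counts at 0h.

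Other libraries differed at these bases. Regions of 6h held 45.4% of the bases called only with flavopiridol and 32.8% of those called only without it, where 14.6% of the whole span lay in 6h regions. For 5d the order was the opposite, 20.5% and 53.4% (13.4% of the span). At 24h after GSK126 it was 21.6% and 45.7%, and in the uninduced 0h library 7.45% and 20.8%, with 7.69% of the span. H2A.Z regions held 7.12% and 8.69%. Bases shared by the pair were in 0h regions to 59.8%, so much of what did not change was also called without induced protein.

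Genes already covered at 6h can be followed through the time of treatment, since flavopiridol was present from then on. Of 376 high genes with 80% or more at 6h, 324 had 20% or less at 24h and 72 had 80% or more with flavopiridol. Their mean coverage was 90.8% at 6h, 8.74% at 24h and 33.3% at 24h with flavopiridol, and the medians at 24h were 0% and 20.0%. Of the 324, 41 kept 80% or more with flavopiridol, while 187 of the 376 had 20% or less in both 24h libraries. Over all 8420 high genes, 206 had 80% or more with flavopiridol and 6823 had 20% or less in both. Only 1106 of the 8420 had any coverage at 24h without flavopiridol, so low coverage there is common in the class and not particular to the 376.

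Chromosomes 8, 15 and 17 stood apart. They carry 13.7% of the genes examined and 121 of the 237 genes covered only with flavopiridol (51.1%). High genes there went from 5.88% to 27.3% mean coverage, against 1.62% to 7.63% on the other chromosomes. Coverage was also higher there in the other libraries, for high genes 3.10% against 0.555% at 0h and 46.9% against 15.3% at 6h, and its part in the result was not tested. The high-class mean was higher with flavopiridol on 20 of 20 chromosomes, by 1.02 (X) to 23.7 points (17). Without these 3 chromosomes 116 genes were covered only with flavopiridol and 41 only without it, and 1.01% against 0.0699% of high genes reached 80%. The chromosomes share a library, so they are no replicates.

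**Figure D5:**
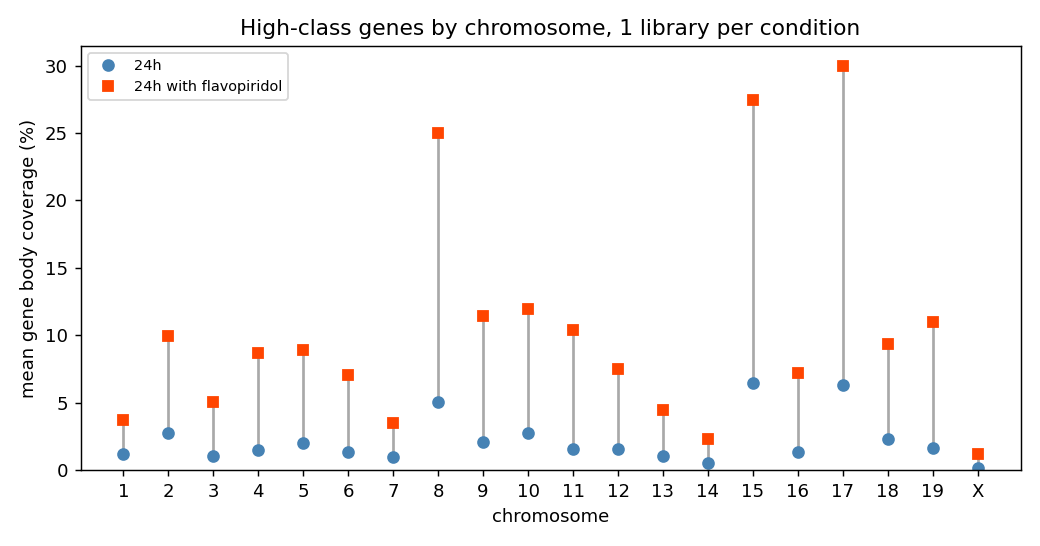
Mean body coverage of high genes (y axis, %) on each chromosome (x axis) at 24h (circles) and 24h with flavopiridol (squares), joined by a line. Each square lies above its circle, with the widest gaps on chromosomes 17 (6.29% to 30.0%), 15 (6.49% to 27.4%) and 8 (5.09% to 25.0%).

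Pathway lists are given as counts of genes with a gain of 20 points or more, beside 11.7% for all genes. For lists of mostly high genes the nearer background is the high class, 15.5%. By length that share ran from 8.78% at 3 to 10 kb to 22.6% at 100 kb or more. Losses of 20 points or more were found in 3.42% of all genes and 0.154% of high genes. Medians over a pathway list were 0% in both libraries unless given, as they were over all genes. For the genes of P-TEFb, its 7SK inhibitor and pause release, 4 of 28 gained (14.3%) and 0 lost. Hexim2, the gene of a 7SK-bound inhibitor of P-TEFb (2.27 CPM), went from 0% to 71.3%, Mllt3, of the super elongation complex, from 5.97% to 45.5%, its scaffold gene Aff1 from 5.47% to 32.1%, and Cdk12, another elongation kinase gene, from 0% to 22.8%. Of 12 genes of RNA polymerase II subunits, with a median length of 6.525 kb, none had any coverage in either library. Among histone chaperones and FACT, which move histones during transcription, 3 of 19 gained (15.8%). They were Ubn1, of the HIRA complex, to 35.9%, Asf1b to 32.0% and the remodeller gene Smarca5 to 20.3%, all from 0%.

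Housekeeping lists and p53 targets had from none to 2 gains each and no loss. None of 27 cytosolic ribosomal protein genes on the list, with a median length of 4.45 kb, had any coverage in either library. Rpl36 is not on that list. Of 29 proteasome genes and 26 chaperone genes 0 gained 20 points, with Psma6 at 21.1% and 38.4% and Dnajb11 at 17.4% and 0%. Of 26 splicing genes 2 gained, Sf3b3 from 0% to 61.5% and Srsf3 from 0% to 36.4%. Of the cell cycle genes 2 of 34 gained, Mki67 to 25.9% and the mitotic kinesin gene Kif11 to 21.6%. In glycolysis 2 of 17 gained, Aldoc to 49% and Pfkm from 31.2% to 67.6%, and in cholesterol synthesis 2 of 24, Acat2 to 41.6% and Mvd to 35.8%. Of the p53 targets 2 of 21 gained, Pmaip1 from 40.4% to 100% and Fas from 54.0% to 89.9%.

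Matrix and Polycomb genes had the largest shares of gains among the lists. Of 39 collagen and matrix genes 11 gained and 2 lost, with a list median of 0% and 12% and a median length of 67.8 kb. Loxl1, a collagen crosslinking enzyme gene (233 CPM), went from 0% to 76.1%, Col16a1 from 0% to 68.1% and Col4a2, a basement membrane collagen gene, from 29.9% to 85.4%, while Lum, the silent lumican gene, fell from 100% to 32.7%. Loxl1 and Col16a1 stood at 24.7% and 6.63% at 6h. Of 30 Polycomb group genes 8 gained and 0 lost, with a list median of 0% and 1.74%. Ring1, an E3 ligase subunit gene of PRC1 (9.47 CPM), went from 0% to 100%, Bmi1, of the same complex, from 0% to 45.0%, Phf19, of PRC2, from 0% to 44.1%, and Cbx6 from 0% to 34.4%.

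Gains and losses were equal in number among fibroblast identity genes, and the share of gains among cytoskeletal genes was near that over all genes. Of 17 fibroblast identity genes 2 gained and 2 lost, with a list median of 0% and 5.08%. Pdgfrb, the gene of a PDGF receptor (170 CPM), rose from 0% to 84.0% and Prrx2, a mesenchymal homeobox gene (28.3 CPM), from 41.7% to 86.7%, while Dcn, the decorin gene with only 1.84 CPM in these cells, fell from 67.3% to 19%. Of 33 actin, myosin and focal adhesion genes 4 gained (12.1%, against 11.7% over all genes) and 0 lost. Myl9, a myosin light chain gene, went from 0% to 84.5%, Ptk2, the focal adhesion kinase gene, from 3.41% to 49.4%, Tpm4 from 0% to 29% and Itgav from 0% to 27.4%. Of 21 immediate early genes 3 gained, Klf10 from 1.89% to 95.7%, Dusp5 from 0% to 61.9% and Egr3 from 0% to 24.7%.

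In the lists of mostly silent genes, 31 of the 46 developmental transcription factor genes and 30 of the 41 ion channel and synapse genes had under 0.1 CPM. Of the 46 developmental transcription factor genes 6 gained and 4 lost, with a list median of 0.217% and 8.49%. Among the losses, T, the brachyury gene (under 0.1 CPM), fell from 75.7% to 0% and Foxa1 (0.469 CPM) from 43.9% to 6.90%. Of the ion channel and synapse genes, long genes with a list median length of 437 kb, 0 gained and 0 lost, and the list median was 0.932% and 0.770%. Of 37 examined markers of other cell types 6 lost and 4 gained, among the losses Lyz2, a macrophage lysozyme gene with no RNA counts, from 100% to 0%, and Pecam1, an endothelial adhesion gene, from 52.9% to 7.45%. Itga6 and Cspg4, markers with 214 and 162 CPM here, went from 0% to 27.6% and to 50.7%. The other gains were Sox10, with 0 CPM, from 55.1% to 86.8%, and Acta1, with 4.82 CPM, from 76.1% to 100%.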

How the data were processed

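Regions came from native ChIP-seq and RNA counts from directional poly(A) RNA-seq of the same line. Per the submitters' processing notes, the authors used Bowtie 1.1.2, SICER 1.1 and STAR 2.5.2b with GRCm38. The deposited region lists (window 200 bases, gap 800 bases, threshold 0.01, per the file headers or names) give a whole-number score per region whose meaning is not given in the sources used here, and another column (unit: other) that the authors filled with a running number. The deposited RNA values are the authors' raw counts per gene; column 4, which holds 96.8 to 96.9% of the stranded counts at 0h, was used. The depth behind the ChIP regions is unknown.

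Regions were merged per library. Coverage of a gene body is how much of it, in percent of bases, regions take up once 1 kb is trimmed from each end; protein-coding genes from 3 kb upwards were examined, on chromosomes 1 to 19 and X (RefSeq GRCm38.p6); 17969 of 18415 matched RNA counts. Plain CPM, means of 3 libraries, set the classes. Replicate RNA libraries differed by more than sampling noise, and the labels call them biological triplicates. Strand, known for 79.5% of genes, came from RefSeq promoter windows, and oriented profiles were used only where 80% or more of a set had it. It was known less often on chromosomes 8, 15 and 18. Of the 237 genes covered only with flavopiridol 77.6% had it, against 84.1% of the 164 outside these chromosomes. Oriented profiles and start windows thus under-represent chromosomes 8 and 15, where the high-class mean rose by 19.9 and 20.9 points. What this does to the profiles was not tested. Intervals are exact Clopper-Pearson. With 1 library per condition there was no test. The coverage code was tested on simulated regions. Python 3.11.15, numpy 2.4.6, pandas 2.3.3, scipy 1.17.1 and matplotlib 3.10.9 were used.

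Members and gene lists were chosen with earlier results of these data known. Named genes are the 10 with the most RNA and the 10 longest among those covered only with flavopiridol, 5 and 5 only without, the 5 with the most RNA covered in both and in neither, up to 4 of each list by size of difference, 2 just inside and 2 just outside the bound, and the 5 longest stretches each way. Some genes this rule takes are not reported here. Sequences are those of members among the 10 whose promoter window meets the annotated start. The input library and other region settings were left out.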

Additional observations from a re-analysis of the deposited data

How the results depend on the processing

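More genes were covered only with than only without flavopiridol, and a larger share of high genes reached the bound with it, under all alternatives run, 8 for the gene counts and 10 for the shares. The gene counts of 237 and 52 were 115 and 37 with bounds of 90% and 10%, 398 and 99 with 70% and 30%, 140 and 20 without trimming, and 117 and 5 in genes of 10 kb or more. With only regions at or above their library's median score they were 166 and 56, and the regions with no shared base 8008 with and 6464 without flavopiridol. With equal covered length the region counts of 11419 and 10799 became 8959 and 13627, the 1 of 5 region alternatives that turned their order round. The shares of high genes, 2.45% and 0.261%, were 1.78% and 0.214% without trimming, 7.42% and 0.974% when covered means 50% or more, 0.891% and 0.0950% with the median score, 2.44 to 2.46% and 0.261 to 0.273% without each 0h RNA library in turn, and 2.46% and 0.285% with classes from RNA at 24h. Without chromosomes 8, 15 and 17 the gene counts were 116 and 41 and the shares 1.01% and 0.0699%. This alternative and the classes from 24h were chosen after seeing the data. The smaller counts in fewer genes or chromosomes follow from what was left out; for the other differences the cause was not tested. Counts per kilobase of exon, planned for the classes, were not run because exon lengths were not used here. No paired analysis was possible because each condition is 1 ChIP library and no result comes from a test.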

Other observations

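Length went with the difference in points in another way in the medium and low classes than in the high class. Medium genes went from 8.14% to 19.3% mean coverage at 3 to 10 kb, from 13.1% to 24.9% at 10 to 30 kb, from 19.2% to 25.8% at 30 to 100 kb and from 17.7% to 22.9% at 100 kb or more. Low genes went from 25.1% to 31.7%, from 33.5% to 36.0%, from 31.1% to 30.4% and from 27.1% to 24.1% in the same order, so their longest genes were lower with flavopiridol. Whether length acts differently in the classes was not tested, since each condition is 1 library.

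Among 1986 silent genes of 3 to 10 kb, 31 (1.56%) were covered only with and 44 (2.22%) only without flavopiridol. In 1537 high genes of the same length the counts were 35 (2.28%) and 0. Over all genes examined the shares were 1.29% and 0.282%. Without flavopiridol, 258 of these silent genes had 80% or more, but only 8 of these high genes. Of those 8, 7 had 80% or more with flavopiridol too. The 0 in high genes thus says little, and the difference between the classes was not tested.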
